A study of Mus musculus with 32 samples.

Results

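Myelin, the membrane sheath that oligodendrocytes wrap around axons, was followed here through 9 genes of its proteins and lipids, out of 53715 genes in the tables. They were chosen by name as myelin genes (*Mbp*, *Mobp*, *Mog*, *Mag*, *Cnp*, *Cldn11*, *Mal*, *Opalin* and *Ugt8a*). RNA-seq libraries were made from the dissected amygdala and hippocampus of 16 adult male mice, 4 of each of 4 genotypes, giving 32 libraries. Wild-type (WT) mice were compared with *Kmt2a*-HET mice (*Kmt2a* +/-), *Kdm5c*-KO mice (*Kdm5c* -/y) and *Kdm5c*-*Kmt2a* double mutants (DM), which carried both alleles. *Kmt2a* encodes a histone H3 lysine 4 methyltransferase and *Kdm5c*, on the X chromosome, a demethylase of the same residue. All mice were F1 hybrids, sons of 129S1/SvImJ fathers and C57BL/6J mothers, so that each genotype shared the mixed background. Both alleles are inherited through the germ line and act in all cell types, and each library was whole tissue. A library therefore mixes oligodendrocytes with neurons and other glia, and fewer oligodendrocytes and less RNA per oligodendrocyte cannot be told apart.

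Oligodendrocytes arise from precursors that stop dividing, pass through a newly formed stage and then switch on the genes of the sheath under the transcription factors SOX10, MYRF and the OLIG proteins. In the compact sheath, the myelin basic protein MBP holds the cytoplasmic faces of the membrane together. MAG and MOG lie at the inner and the outer surface, CNP keeps cytoplasmic channels open, CLDN11 seals the layers with tight junctions, and UGT8 makes galactosylceramide, the major glycolipid of the sheath.

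The sequences before the transcription starts of the members are shown because these genes varied together across libraries. RefSeq promoters of 8 members were at hand, and *Mbp* was not among them. In 250 bases before the start, searched on both strands, ACAAAG, a core that SOX factors bind, was found in 4 of the 8 (*Cnp*, *Mag*, *Mobp* and *Opalin*) and in 16.5% of 32851 promoters of the same length. CTGGCAC, a core described for MYRF, was found in *Cnp* and *Mag* and in 4.19% of all promoters. The second SOX core ACAATG, the E-box CAGCTG and TATAAA were in none of the 8, and in 10.7%, 13.0% and 12.4% of all promoters. No pair of these matches overlapped, and a match is a description of letters, not of a bound site. The 4 promoters with a match are given 5′ to 3′ on the strand of the gene (build GRCm38.p6), ending before the first annotated base of any transcript, with positions counted back from the RefSeq start. Capitals mark ACAAAG or CTGGCAC, with CTTTGT being ACAAAG on the other strand. *Mag* lies at chr7:30914923-30915172 (minus strand), *Mobp* at chr9:120149492-120149706 (plus), *Cnp* at chr11:100574689-100574903 (plus) and *Opalin* at chr19:41077114-41077363 (minus).
Mag: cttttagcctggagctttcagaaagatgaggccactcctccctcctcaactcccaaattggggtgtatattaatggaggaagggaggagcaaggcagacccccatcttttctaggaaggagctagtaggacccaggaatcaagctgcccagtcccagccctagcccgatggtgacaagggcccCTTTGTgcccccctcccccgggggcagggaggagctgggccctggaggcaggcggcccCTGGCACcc
Mobp: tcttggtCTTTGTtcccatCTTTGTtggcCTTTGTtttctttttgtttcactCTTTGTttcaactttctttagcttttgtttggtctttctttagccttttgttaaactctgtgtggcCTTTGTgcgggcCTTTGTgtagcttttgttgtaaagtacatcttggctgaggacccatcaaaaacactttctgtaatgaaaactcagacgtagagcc
Cnp: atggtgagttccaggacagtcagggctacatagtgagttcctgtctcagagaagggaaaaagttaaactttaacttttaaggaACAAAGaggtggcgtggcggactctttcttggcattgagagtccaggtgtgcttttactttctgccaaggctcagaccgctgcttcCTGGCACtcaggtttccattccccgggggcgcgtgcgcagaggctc
Opalin: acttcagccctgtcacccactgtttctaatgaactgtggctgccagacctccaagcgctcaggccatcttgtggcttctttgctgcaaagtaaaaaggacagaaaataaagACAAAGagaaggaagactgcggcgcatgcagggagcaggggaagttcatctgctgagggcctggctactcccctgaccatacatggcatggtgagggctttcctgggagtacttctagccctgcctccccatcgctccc
In *Mobp*, 6 copies of CTTTGT lay between 243 and 115 bases before the start. In *Mag* the MYRF core ended 3 bases before the start.

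The libraries held between 19215503 and 27798980 counts assigned to genes. All 9 members had counts in each of the 32 libraries, while *Pmp2* and *Prx*, markers of the Schwann cells that myelinate peripheral nerves, stayed at or below 0.323 and 2.2 TPM (transcript counts per length, scaled to a fixed total in each library). *Pmp22*, the other gene of that list, which other cells also express, ran from 13.7 to 37.7 TPM. Summed levels of 5 hippocampal markers followed the region labels and ran from 177 to 382 TPM in the hippocampus and from 19.2 to 46.6 in the amygdala. Choroid plexus markers reached 7803 TPM in 1 *Kdm5c*-KO hippocampus and 3149 in 1 DM amygdala, and summed striatal markers ran from 316 to 2405 TPM across amygdala libraries. Counts of *Kdm5c* were lower in mice without it, by a log2 difference of -0.30 in both regions (adjusted p = 0.042 in the amygdala and 0.000513 in the hippocampus, DESeq2). *Kmt2a* counts did not pass the test (log2 differences of -0.04 and 0.19 for heterozygosity), and since most of each gene's counts come from outside the deleted exons, neither value is a full check of the labels.

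One library stood apart. In the amygdala of WT replicate 1, all 9 members were at their lowest among the 16 amygdala libraries, at 0.45 of the regional median on average. Its summed level of the 9 members was 2079 TPM, against 3704 to 6928 in the other 15 libraries. Summed levels of the other lineage lists were low with them. The 34 other myelin and mature oligodendrocyte genes were at 1429 TPM (2096 to 3557 elsewhere), 9 oligodendrocyte transcription factors at 310 (423 to 571) and 14 precursor and newly formed oligodendrocyte genes at 230 (362 to 523). The most abundant genes weigh most in a sum, so these values do not show that each gene of a list was low. Neuronal markers (3299 TPM, elsewhere 2565 to 3699) and astrocyte markers (2381, elsewhere 2328 to 2930) were within the range of the other libraries, and 7 microglial markers were above it at 459 TPM (301 to 380). The low level was not particular to the lineage. The same library was also lowest of the 16 for summed amygdala markers (78.3 TPM, elsewhere 79.5 to 193), hippocampal markers (19.2, elsewhere 26.5 to 46.6) and the Schwann cell list, mostly *Pmp22* (14.7, elsewhere 18.2 to 39). It was second lowest for striatal markers (423) and had 21764 genes detected, the fewest in the amygdala. The part of these in the members' low level was not tested. The hippocampus of the same mouse was also below the median, at 0.773. At the other end, *Kmt2a*-HET replicate 4 was the lowest hippocampus for 8 members (0.669 of the median) and *Kdm5c*-KO replicate 1 the highest for 6 (1.43). Many of the medians below are also given without one of these libraries. Amygdala libraries numbered 1 also deviated together across genotypes (r of 0.21 to 0.466), which not every pair did in the hippocampus (-0.0906 to 0.327), and each count was repeated without all libraries numbered 1.

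The 9 genes lie apart in the genome, with *Mbp* at chr18:82475146-82585637, *Mobp* at chr9:120149707-120181484, *Mog* at chr17:37010743-37023398, *Mag* at chr7:30899176-30914873, *Cnp* at chr11:100574904-100591729, *Mal* at chr2:127633226-127656695 and *Opalin* at chr19:41061710-41077113 (GRCm38). *Cldn11* (chr3:31149920-31164324) and *Ugt8a* (chr3:125865271-125938619) share a chromosome.

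The members spanned a wide range of levels. Compared per transcript length over the 32 libraries, *Mbp* was the most abundant at 3428 TPM ± 824 (SD, n = 32), rank 18 among all genes. *Mobp*, which encodes an oligodendrocytic basic protein, followed at 676 ± 159 TPM, and *Cnp* at 298 ± 71.6. *Mag* (212 ± 48.6 TPM), *Cldn11* (151 ± 34.2) and *Mal* (139 ± 32.8), a raft-associated membrane protein, formed a middle group. *Mog* stood at 58.4 ± 13.8 TPM, *Opalin*, an oligodendrocyte membrane glycoprotein, at 23.4 ± 5.72, and *Ugt8a* at 17.6 ± 4.89. Among neighbours in this order, only the ranges of *Mbp* and *Mobp* did not overlap, but within a library the order was firmer. *Cnp* exceeded *Mag*, *Mag* exceeded *Cldn11*, *Mal* exceeded *Mog* and *Mog* exceeded *Opalin* in 32 of 32 libraries, whereas *Cldn11* exceeded *Mal* in 27 and *Opalin* exceeded *Ugt8a* in 29. Dividing counts by the union of all exons placed *Mag* at rank 6 among the 9 in place of rank 4.

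Transcript tables showed which forms carried these levels. *Mbp*-211 held 77.9% ± 1.49 of *Mbp* counts in the amygdala and 78.3% ± 1.02 in the hippocampus (SD, n = 16 each). *Mobp*-204, annotated as a target of nonsense-mediated decay, held 85% ± 1.88 and 84.8% ± 1.71 of *Mobp* counts. *Mog*, *Mal* and *Ugt8a* were each almost wholly 1 transcript, and *Cldn11* and *Opalin* had 1 annotated transcript each. The leading form of *Cnp* held 58.8% ± 4.31 and 57% ± 2.3, with most of the remainder in a form annotated as a processed transcript. *Mag* was the least settled, with *Mag*-203 at 52.8% ± 12.2 and 56.1% ± 13.8, and transcripts that share most of their exons cannot be separated well by counts. In 49 exact permutation tests of the leading shares between regions or between a mutant and WT, 0 passed and 0 had an unadjusted p under 0.05 (smallest adjusted p = 0.933). With 4 mice against 4 such a test cannot give a p below 0.0286, so that no single one could pass after adjustment, and these tests do not show that the shares were alike. The *Mobp*-204 share was below the WT mean in all 4 mice of each mutant in both regions, with mean differences of -0.941 to -3.38 percentage points, in 6 comparisons that share their WT mice within a region (exact permutation p of 0.0857 to 0.371).

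*Mbp* also has a distant upstream start, used by the golli transcripts that neurons and immune cells make. The 4 transcripts from that start took 2.51% ± 0.941 of *Mbp* counts in the amygdala and 2.73% ± 0.63 in the hippocampus (SD, n = 16). These forms did not share the low level of WT replicate 1. Their normalised count there was 1476 in the amygdala, beside a median of 1362 in the other amygdala libraries, and 1600 in the hippocampus beside 1512. The share differed between regions by 0.225 percentage points (SD 0.929, p = 0.348, exact sign-flip permutation test over 16 mice, two-sided). This grouping was chosen after the values were seen.

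**Figure D1:**
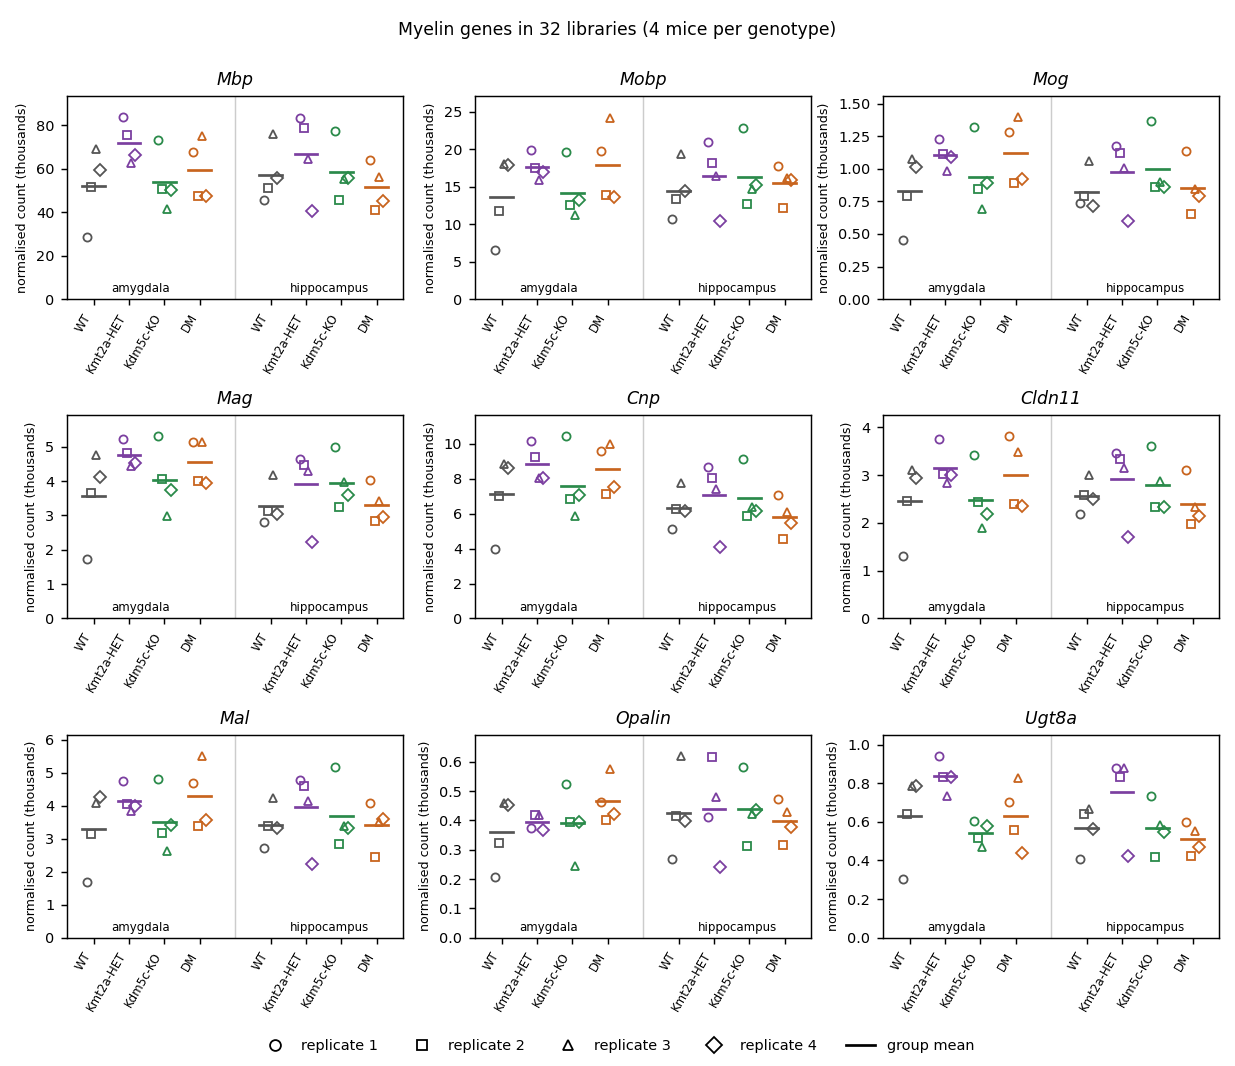
Normalised counts of each member (vertical axis, linear and from 0) by genotype and region, with 1 symbol per mouse, its shape giving the replicate number, and a bar at the mean of 4 mice. The lowest amygdala point of all 9 members is WT replicate 1.

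The first question was whether either mutation, or both together, altered these genes. None of the 9 passed the test in any mutant. *Mbp* shows the pattern of the amygdala. Its normalised counts in WT mice 1 to 4 were 28530, 51443, 69087 and 59248. Those of *Kmt2a*-HET mice were 83915, 75397, 62610 and 66541, and those of *Kdm5c*-KO mice 73436, 50761, 41650 and 50341. The 4 DM values were 67685, 47553, 74903 and 47718. All 4 *Kmt2a*-HET values lay above 3 of the WT values, WT replicate 3 lay inside their range, and the *Kdm5c*-KO and DM values overlapped with those of WT. The log2 difference between *Kmt2a*-HET and WT was 0.47 (SE 0.23), at an adjusted p of 1.

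All 9 members had positive estimates in the *Kmt2a*-HET amygdala, with a median log2 difference of 0.38 (0.13 to 0.47) beside -0.0017 over all genes, and 0.00988% of 30355 genes tested were called. That share is 3 genes, and 0 to 82 were called when 1 library was left out (82 without WT replicate 2). A single member had an unadjusted p under 0.05. Their 95% intervals reached from -0.33 to 0.92. The size of this difference rested on 1 library, since without WT replicate 1 the median was 0.16, and without all libraries numbered 1 it was 0.08. The summed Schwann cell list, mostly *Pmp22*, ran from 31.4 to 39 TPM in *Kmt2a*-HET and from 14.7 to 30.3 in WT, and hippocampal markers from 39.1 to 46.6 and from 19.2 to 41. Striatal markers went the other way on average (1028 against 1351 TPM), as did neuronal markers (3274 against 3438). The part of these lists in the members' values was not tested. In the *Kdm5c*-KO amygdala the members had a median of 0.09 (-0.21 to 0.18, all genes -0.01, 0.756% called), which became -0.12 without WT replicate 1 and -0.11 without *Kdm5c*-KO replicate 1. DM amygdalae had a median of 0.36 (0.01 to 0.44, all genes -0.01, 0.990% called), and 0.13 without WT replicate 1. Leaving out 1 library of a comparison gave 95 to 274 called genes in *Kdm5c*-KO (144 with all) and 110 to 277 in DM (211 with all). 5 choroid plexus markers had a median log2 difference of 2.86 in the same DM comparison, where their summed level ran from 23.9 to 3149 TPM in DM and from 25.9 to 73.6 in WT. Summed astrocyte markers ran from 2482 to 2930 TPM in these DM amygdalae and from 2328 to 2475 in WT, and neuronal markers from 3135 to 3286 and from 3299 to 3654. The part of these lists in the members' values was not tested.

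In the hippocampus 0 members were called in any mutant as well. *Kmt2a*-HET differed from WT by a median of 0.21 (0.04 to 0.41, all genes 0.00, 0% of 29841 genes called), by 0.41 without *Kmt2a*-HET replicate 4 and by 0.12 without WT replicate 1. *Kdm5c*-KO differed by a median of 0.12 (0.00 to 0.27, 1.01% called), which turned to -0.04 without *Kdm5c*-KO replicate 1 and was 0.03 without WT replicate 1. Choroid plexus markers summed to 54.4 to 7803 TPM in these *Kdm5c*-KO hippocampi and to 38.4 to 2031 in WT, with the highest value in *Kdm5c*-KO replicate 1, and their part in the members' values was not tested. DM differed by a median of -0.10 (-0.15 to 0.10, 0.881% called), and by -0.18 without WT replicate 1. Astrocyte markers summed to 2605 to 3354 TPM in these DM hippocampi and to 2288 to 2724 in WT, and neuronal markers to 4610 to 4869 and to 4815 to 4942. Their part in the members' values was not tested. Leaving out 1 library of a comparison gave 109 to 290 called genes in *Kdm5c*-KO (195 with all) and 100 to 261 in DM (170 with all). The SE of a single member ranged from 0.21 to 0.27.

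Comparisons between mutants gave the same count of 0 members. In the amygdala, DM differed from *Kdm5c*-KO by a median of 0.26 (0.00329% of genes called), 0.44 without *Kdm5c*-KO replicate 1, and from *Kmt2a*-HET by -0.05 (0.805% called). In the hippocampus DM differed from *Kdm5c*-KO by a median of -0.19 (0.00670% called), -0.02 without *Kdm5c*-KO replicate 1, and from *Kmt2a*-HET by -0.24 (0.606% called), -0.44 without *Kmt2a*-HET replicate 4. The shares called against *Kdm5c*-KO are 1 gene in the amygdala, which became up to 31 (without DM replicate 4), and 2 in the hippocampus, which became 126 without *Kdm5c*-KO replicate 2 and 36 without DM replicate 1. Against *Kmt2a*-HET, leaving out 1 library gave 90 to 197 in place of 158 called genes in the amygdala and 79 to 110 in place of 117 in the hippocampus. The lowest member estimate of these comparisons was that of *Ugt8a* for DM against *Kmt2a*-HET in the hippocampus (-0.56, SE 0.23, unadjusted p = 0.0127, adjusted p = 0.616, DESeq2). The *Ugt8a* counts behind it were 881, 834, 879 and 424 in *Kmt2a*-HET and 599, 424, 555 and 472 in DM. The low *Kmt2a*-HET value is that of replicate 4, and without it *Ugt8a* passed the test (-0.76, adjusted p = 0.0277).

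Using all 4 genotypes at once, 8 mice without *Kdm5c* (*Kdm5c*-KO and DM) were compared with 8 mice that had it, and 8 *Kmt2a* heterozygotes (*Kmt2a*-HET and DM) with 8 others. For *Kdm5c* loss, members had medians of 0.05 in the amygdala (-0.30 to 0.18, 1.66% of genes called) and -0.06 in the hippocampus (-0.28 to 0.04, 2.42% called). For *Kmt2a* heterozygosity the medians were 0.32 (0% called) and 0.01 (0.0878% called). The hippocampal share for heterozygosity rests on 15 genes, a count that ran from 0 to 349 (without WT replicate 2) when single libraries were left out. For *Kdm5c* loss in the amygdala, 614 in place of 335 genes were called without WT replicate 1. DM departed from additivity of the single mutants by medians of -0.14 (amygdala, 0.00329% called) and -0.41 (hippocampus, 0% called), with SEs of 0.29 to 0.38. The amygdala share called is 1 gene, which became 68 without WT replicate 2. Leaving out WT replicate 1 turned the amygdala medians to -0.07 for *Kdm5c* loss and 0.06 for the departure from additivity, and gave 0.21 for *Kmt2a* heterozygosity. Leaving out *Kdm5c*-KO replicate 1 turned the amygdala medians to -0.06 for *Kdm5c* loss and 0.07 for the departure. In the hippocampus, leaving out 1 of the 3 libraries named above gave medians of -0.16 to -0.12 for *Kdm5c* loss, -0.03 to 0.11 for *Kmt2a* heterozygosity and -0.60 to -0.25 for the departure. With all libraries, no member passed any of these 6 tests, and in the 16 genotype comparisons 3 values had an unadjusted p under 0.05. edgeR's quasi-likelihood test called 0 members in them as well.

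The genotype medians also depend on the scale. With spike-in scaling the members had a median of -0.65 in the DM hippocampus against WT (-0.74 to -0.47), where all genes had -0.51, so that relative to all genes it was -0.14. Against *Kdm5c*-KO the DM hippocampus had -0.87 beside -0.71 over all genes. In the amygdala the DM median against WT was 0.09 beside -0.21 over all genes, a relative value of 0.30. The sign of the median turned in 3 comparisons. DM against *Kdm5c*-KO in the amygdala was at -0.06 (all genes -0.25), *Kdm5c* loss in the amygdala at -0.11 (all genes -0.16) and *Kmt2a* heterozygosity in the hippocampus at -0.39 (all genes -0.40). The departure of DM from additivity was at -0.57 in the amygdala (all genes -0.40) and at -0.95 in the hippocampus (all genes -0.65). DM against *Kmt2a*-HET was at -0.43 in the amygdala (all genes -0.33) and at -0.68 in the hippocampus (all genes -0.45). *Kmt2a*-HET against WT was at 0.53 in the amygdala (all genes 0.11) and at 0.07 in the hippocampus (all genes -0.06). This scaling called 0 members between genotypes.

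*Ugt8a* was the member nearest to a call for *Kdm5c* loss. WT amygdalae had 304, 640, 787 and 783 *Ugt8a* counts, and those of *Kmt2a*-HET mice 942, 832, 736 and 830. Without *Kdm5c*, the single mutants had 605, 518, 471 and 577 and the double mutants 705, 556, 825 and 440. Apart from WT replicate 1, each mouse with *Kdm5c* had at least 640, and 6 of the 8 mice without it were below that. The log2 difference was -0.30 (SE 0.17, adjusted p = 0.737) with all libraries, and -0.42 (adjusted p = 0.024) without WT replicate 1. Without all libraries numbered 1 it was -0.44 (adjusted p = 0.0463). In the hippocampus it was -0.28 (adjusted p = 0.625).

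**Figure D2:**
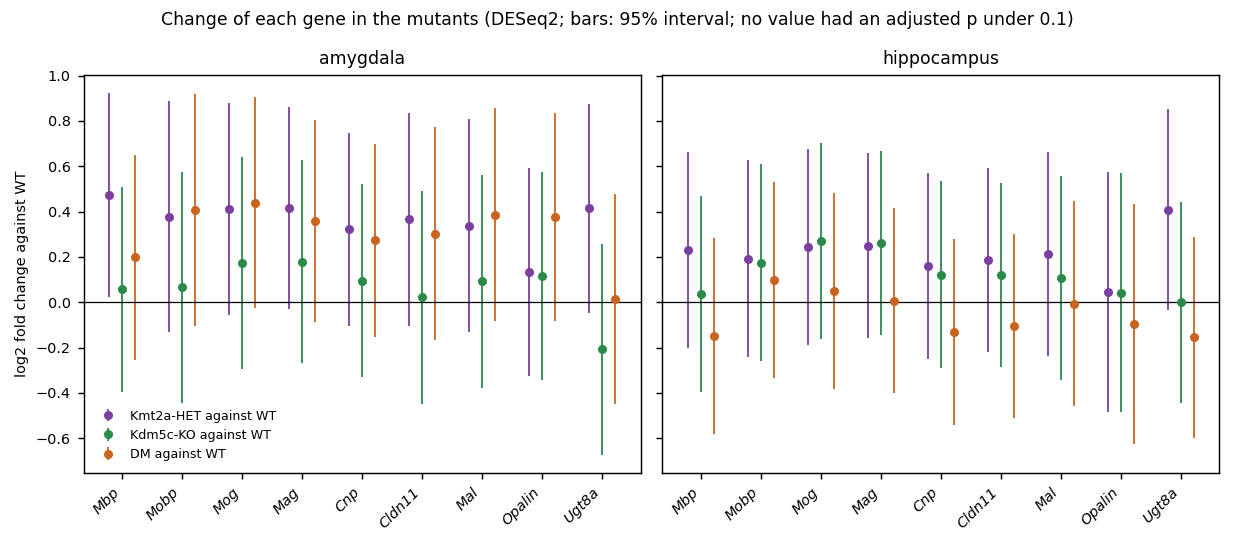
Log2 difference of each member from WT in the 3 mutants, by region, with points at the DESeq2 estimate and bars for its 95% interval (4 mice a group). No value passed the test in these comparisons, and the amygdala points of *Kmt2a*-HET lie above 0 for all 9 members (0.13 to 0.47).

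Because the members varied together, each was also expressed relative to the mean of the other 8 in the same library, which takes out whatever they share. This measure and its 45 exact permutation tests were chosen after the values were seen. On this scale WT amygdalae had *Ugt8a* at -2.72, -2.50, -2.63 and -2.57 log2 units, and those of *Kmt2a*-HET mice at -2.52, -2.56, -2.60 and -2.46. The *Kdm5c*-KO amygdalae lay at -3.20, -2.88, -2.68 and -2.73, and those of DM mice at -2.93, -2.81, -2.83 and -3.17. WT replicate 1 was the lowest mouse with *Kdm5c*, and only *Kdm5c*-KO replicate 3 among the mice without it lay above that value. A relative level shows unequal change within the set, and a lower level of 1 member raises those of the others by construction. Relative *Ugt8a* was at -2.57 ± 0.08 in the 8 amygdalae with *Kdm5c* and -2.90 ± 0.19 in the 8 without it (SD), a difference of -0.33 (exact permutation p = 0.000311, adjusted p = 0.00466). The smallest p that 8 mice against 8 can give is 0.000155. This call held without each replicate number in turn.

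In the hippocampus relative *Ugt8a* was at -2.66 ± 0.18 with *Kdm5c* and -2.89 ± 0.09 without it (difference -0.23, adjusted p = 0.0358, exact permutation test), and this call was lost without the mice numbered 2 or those numbered 4 (adjusted p = 0.204 and 0.166). WT replicates 1 and 3, at -2.92 and -2.90, lay within the range of the mice without *Kdm5c* (-3.03 to -2.81). Mean relative *Ugt8a* there was -2.77 in WT, -2.91 in *Kdm5c*-KO, -2.56 in *Kmt2a*-HET and -2.88 in DM, so the difference was larger between *Kmt2a*-HET and DM. Relative *Mbp* was lower by -0.13 in the amygdala (adjusted p = 0.0378) and relative *Mog* higher by 0.10 (adjusted p = 0.0272) in mice without *Kdm5c*. Mean relative *Mbp* was at 4.58 in WT, 4.57 in *Kdm5c*-KO, 4.69 in *Kmt2a*-HET and 4.45 in DM amygdalae. Its difference thus lay between *Kmt2a*-HET and DM, while the means of WT and *Kdm5c*-KO were nearly equal. The *Mbp* call was lost without the mice numbered 1, 2 or 3 (adjusted p = 0.127, 0.204 and 0.106), and the *Mog* call without those numbered 3 (adjusted p = 0.106). Relative *Mbp* in the hippocampus differed by -0.11 (adjusted p = 0.0579), a call lost without the mice numbered 1 or 4 (adjusted p = 0.216 and 0.219). Relative *Mal* in the amygdala differed by 0.07 (adjusted p = 0.0938), and this call was lost when any 1 number was left out (adjusted p of 0.125 to 0.281). The 12 calls among the 45 tests include 1 for *Kmt2a* heterozygosity, for *Cnp* in the hippocampus (-0.08, adjusted p = 0.0358), which was lost without the mice numbered 2 or 4 (adjusted p = 0.277 and 0.141).

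**Figure D3:**
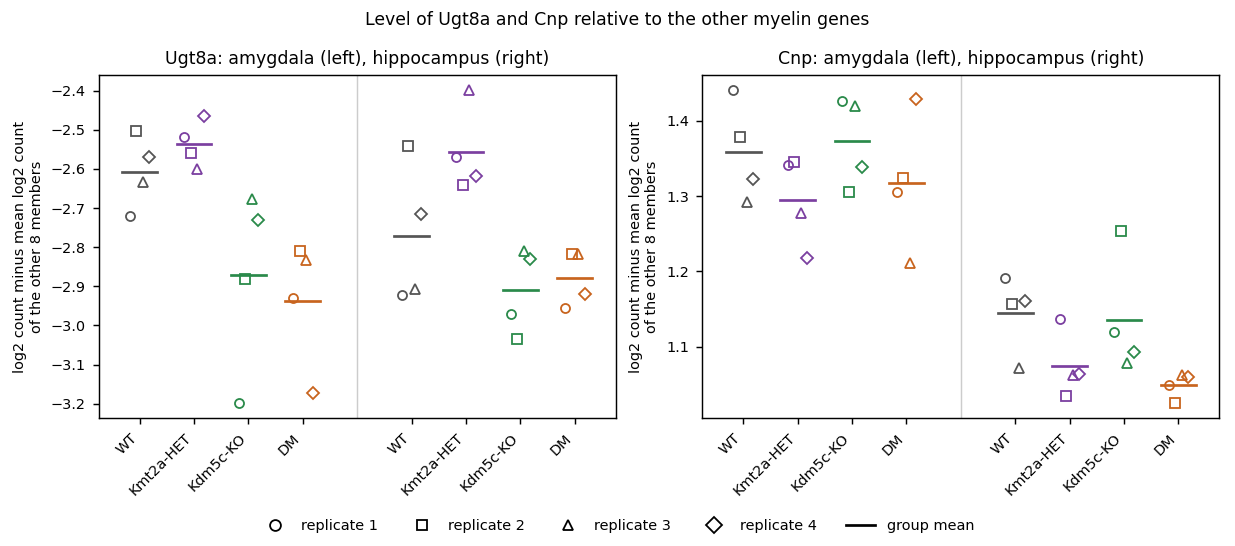
Log2 level of *Ugt8a* and *Cnp* relative to the mean of the other 8 members, with 1 symbol per mouse, its shape giving the replicate number, and a bar at the mean of 4 mice, by genotype and region. Relative *Ugt8a* is between -2.72 and -2.46 in the amygdalae with *Kdm5c* and between -3.20 and -2.68 in those without it, and relative *Cnp* is between 1.21 and 1.44 in the amygdala and between 1.02 and 1.25 in the hippocampus.

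The 34 other myelin and mature oligodendrocyte genes were called as follows between genotypes. With *Kdm5c* loss in the hippocampus, 2 of the 34 passed, beside 2.42% of all genes. *Gamt*, a creatine synthesis enzyme, rose (0.52, adjusted p = 5.93e-05) and *Tspan2*, a tetraspanin of the sheath, fell (-0.61, adjusted p = 0.00245), while in the amygdala 0 of the 34 passed, beside 1.66% of all genes. The *Kdm5c*-KO replicate 1 hippocampus was the highest for the 34 genes, at a summed 4582 TPM (1818 to 3055 elsewhere), and for the choroid plexus markers given above. Without it *Gamt* was at 0.50 (adjusted p = 0.000457) and *Tspan2* at -0.67 (adjusted p = 0.000513), and both calls held without each of the 16 libraries in turn. With spike-in scaling neither was called (0.45 and -0.72). *Gamt* was also higher in *Kdm5c*-KO against WT (0.90, adjusted p = 2.11e-07), and at 0.87 (adjusted p = 1.93e-05) without replicate 1 of *Kdm5c*-KO. The *Kdm5c* loss value of 0.52 averages this difference with that of DM against *Kmt2a*-HET, in which *Gamt* was not called. *Tspan2* was lower in DM against *Kmt2a*-HET (-0.73, adjusted p = 0.058), a call lost in 6 of 8 fits that left out 1 library (adjusted p up to 0.409) and with edgeR (adjusted p = 0.227). None of the 9 transcription factors was called between genotypes, where 0% to 2.42% of all genes were called. Of the 14 precursor and newly formed oligodendrocyte genes, *Gpr17*, a receptor of newly formed cells, was called in 1 comparison, lower in DM than in *Kmt2a*-HET amygdalae (-0.29, adjusted p = 0.0973), beside 0.805% of all genes. This call too was lost in 6 of 8 such fits (adjusted p up to 0.45) and with edgeR (adjusted p = 0.522).

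The second question was whether the regions differed. Of the 9 members, *Cnp* passed the test and was lower in the hippocampus, and the other 8 did not pass. WT mice had 3961, 7010, 8846 and 8618 *Cnp* counts in the amygdala, beside 5132, 6270, 7757 and 6138 in the hippocampus. For *Kmt2a*-HET mice these were 10166, 9238, 8038 and 8032, beside 8655, 8037, 7424 and 4108. The exceptions to a lower hippocampus were WT replicate 1 and, among *Kdm5c*-KO mice (10461, 6846, 5887 and 7089, beside 9116, 5894, 6381 and 6163), replicate 3. Each double mutant was lower in the hippocampus (9592, 7117, 9974 and 7506, beside 7075, 4532, 6071 and 5490). The hippocampal value was the lower one in 14 of 16 mice. Averaged over the 4 genotypes the log2 difference was -0.30 (SE 0.11, adjusted p = 0.0209, DESeq2), and 46.3% of 23650 genes tested were called in that comparison.

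*Mag* was lower in 14 of 16 mice as well, but by less (-0.22, SE 0.11, adjusted p = 0.113). With the mouse as a block, the call for *Cnp* had an adjusted p of 3.87e-05 and *Mag* passed (-0.21, adjusted p = 0.0247), with 46.9% of genes called. The other 7 members differed by -0.13 to 0.08 between regions and were not called, and each of them was lower in 5 to 10 of the 16 mice. The median over the 9 members was -0.07, beside -0.01 over all genes.

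Within single genotypes, 0 members were called in WT (21.2% of genes called), *Kmt2a*-HET (29.6%) and *Kdm5c*-KO (24.0%). In DM *Cnp* was called (-0.56, SE 0.22, adjusted p = 0.0533, 27.1% of genes called), a call lost without replicate 2, 3 or 4 (adjusted p of 0.139, 0.189 and 0.105). With the mouse as a block, *Cnp* was also called in *Kmt2a*-HET (-0.38, adjusted p = 0.0203, 33.2% of genes called), and *Cnp*, *Mag* (-0.46, adjusted p = 0.024) and *Mog* (-0.39, adjusted p = 0.0667) in DM (30.9%). The test of the mutant-against-WT difference between regions called 0 members in *Kmt2a*-HET (0% of genes called), *Kdm5c*-KO (0.0125%) and DM (0.0125%), with SEs of 0.32 to 0.37. In DM its estimates were below 0 for all 9 members, lower in the hippocampus (-0.46 to -0.16), with a median of -0.38 that was -0.23 without WT replicate 1. In *Kmt2a*-HET they were also below 0 for all 9 (-0.24 to -0.0045), with a median of -0.17 that was -0.04 without WT replicate 1 and 0.0002 without *Kmt2a*-HET replicate 4. In *Kdm5c*-KO 7 were above 0, with a median of 0.09 that was 0.22 without WT replicate 1, -0.07 without WT replicate 4 and -0.03 without *Kdm5c*-KO replicate 3. The members vary together, so that 9 signs are not 9 separate results.

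These region values depend on the scale. Scaling by the added spike-in RNA raised the hippocampal values of all genes by a median of 0.64 on the log2 scale, so that *Cnp* was at 0.33 and not called and 7 members were called higher, while calls over all genes rose from 10947 to 14150. Relative to that shift *Cnp* was at -0.32, *Mag* at -0.26 and *Mobp* at 0.01. Relative to the other members, where library scaling cancels, *Cnp* was lower in the hippocampus of 16 of 16 mice (-0.24, exact sign-flip permutation p = 3.05e-05, the smallest possible, adjusted p = 0.00137). *Mag* was lower in 14 (-0.14, adjusted p = 0.00466). A lower *Cnp* and *Mag* raise the relative level of the other members by construction, so the calls above 0 for *Mobp* (0.11), *Mbp* (0.08) and *Opalin* (0.17) show unequal change within the set and do not show that these genes rose.

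**Figure D4:**
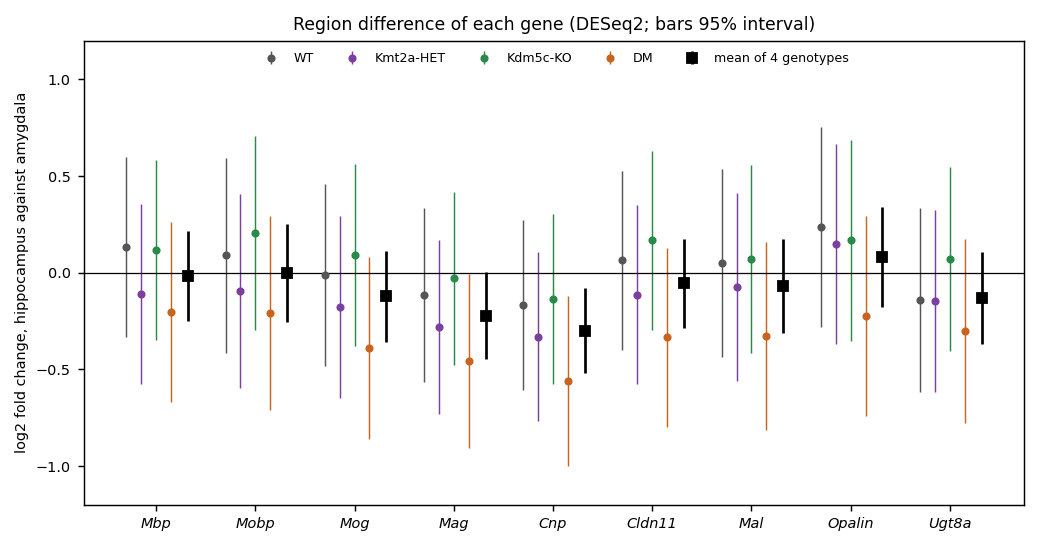
Log2 difference of the hippocampus from the amygdala for each member, in each genotype (coloured points) and as the mean of the 4 genotypes (black squares), with 95% intervals from DESeq2. The mean for *Cnp* is -0.30, with an interval from -0.52 to -0.08 that leaves out 0.

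Other genes of the lineage had larger differences between regions. With 46.3% of all genes called, 2 of the 34 other myelin genes were called higher and 7 lower in the hippocampus, among them *Tppp*, a tubulin polymerisation protein (0.43), the protease *Klk6* (-1.64) and *Apod*, an apolipoprotein (-0.43). Of 9 transcription factors, 1 was higher (*St18*, 2.05) and 5 lower, with *Nkx6-2* at -1.34 and *Nkx2-2* at -0.74. Of 14 precursor and newly formed oligodendrocyte genes, 2 were higher and 7 lower, with *Lhfpl3* at -1.49, *Tcf7l2* at -2.31 and *Rras2* at 1.18. Several of these, *Tcf7l2* and *Lhfpl3* among them, are also expressed by neurons or other cells.

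The members varied as a unit from mouse to mouse. With group means removed, the 36 pairs of members had a median Pearson r of 0.96 across the 16 amygdala libraries (0.799 to 0.99), 0.922 without WT replicate 1 (0.613 to 0.984), and 0.935 in the hippocampus (0.833 to 0.982). The points of each pair share library, depth and tissue piece, so these values are a description. Across both regions the genes most like the mean of the members, apart from the members, were *Prr18* (r = 0.976, 32 libraries), *Bcas1* (0.971), *Tmem63a* (0.96), *Itgb4* (0.955) and *Sept4* (0.95). *Gjb1* (0.946), *Fa2h* (0.942), *Ndrg1* (0.939), *Evi2a* (0.935) and *Ermn* (0.935) followed, out of 13366 genes. The members themselves were at 0.916 (*Opalin*) to 0.989 (*Cnp*), values raised by construction because each member is part of that mean. The other myelin genes had a median r of 0.866 and the transcription factors 0.727, beside -0.10 for precursor and newly formed genes, -0.03 for astrocyte, -0.18 for microglial and -0.01 for all genes. The precursor and newly formed genes ran from -0.664 to 0.971, the highest being *Bcas1*, named above. Genes outside the lineage were not all near 0, with medians of 0.577 for striatal (0.47 to 0.635), 0.4 for amygdala, 0.271 for choroid plexus and 0.222 for neuronal markers (-0.645 to 0.72), and -0.344 for endothelial ones. Summed over a list, where its most abundant genes weigh most, the precursor and newly formed genes had r = 0.866 with the members in the amygdala and 0.662 in the hippocampus. Lists of other tissue and cells moved with the members too. In the amygdala, r was 0.796 for summed hippocampal markers, 0.762 for amygdala markers, 0.746 for striatal markers and 0.72 for the Schwann cell list, whose sum is mostly *Pmp22*. In the hippocampus these were -0.59, 0.361, 0.425 and 0.524. Their part in the members' variation was not tested.

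Mice with high myelin genes in the amygdala tended to have them in the hippocampus. With genotype means removed, Pearson's r between regions over 16 mice ran from 0.458 (*Mag*, adjusted p = 0.0779) to 0.692 (*Mbp*, adjusted p = 0.019), and Spearman's rho from 0.506 (*Ugt8a*, adjusted p = 0.0487) to 0.776 (*Cnp*, adjusted p = 0.00571), in permutation tests adjusted over the 9 members. The values were permuted freely over all 16 mice after the means were removed, which does not allow for the fitted means, so these p-values may be too small. Leaving out the 2 mice farthest from the amygdala median gave r of 0.33 to 0.654. The relation rested on the mice numbered 1, without which 0 of the 9 members passed, with a median r of 0.228. With spike-in scaling 0 of 9 passed, at a median r of 0.124.

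**Figure D5:**
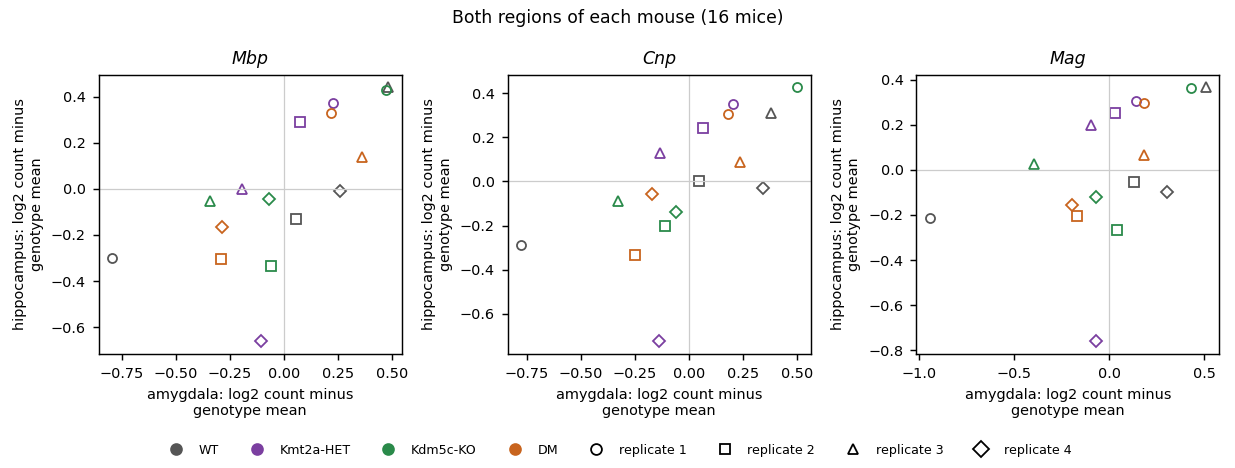
Deviation of each of 16 mice from its genotype mean in log2 normalised counts of *Mbp*, *Cnp* and *Mag*, with the amygdala on the horizontal and the hippocampus on the vertical axis, coloured by genotype. Pearson's r is 0.692 for *Mbp*, 0.656 for *Cnp* and 0.458 for *Mag*, and the point farthest to the left is WT replicate 1.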

How the data were processed

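RNA of amygdala and hippocampus from the same 16 mice was sequenced from libraries made by oligo-dT priming with a strand-preserving kit, with spike-in RNA (ERCC) added. The authors aligned reads with STAR (2.5.3a), counted them with featureCounts of Subread (1.5.0) and tested genes with DESeq2 (1.14.1), per the labels and methods. The deposited gene and transcript tables hold expected counts, some of them not whole, and how those were estimated is not given in the sources used here. The authors' normalisation is not in these values, which were rounded to whole numbers here for the tests. Coordinates follow GRCm38.

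Genotypes were compared within a region by DESeq2 (1.42.0, R 4.3.3; Wald test, all 16 libraries of the region, genotype as the term, Benjamini-Hochberg adjusted p under 0.1 over all genes), and regions in 1 fit of 32 libraries in 8 groups. A comparison averaging 2 genotypes against the other 2 is a contrast of the same fit. Printed counts are divided by the size factors of the 32-library fit, and TPM was computed from transcript counts per length. Alternatives were edgeR (4.0.16), TMM and spike-in factors, a filter on low counts (at least 10 in 4 libraries), a threshold of 0.05, a replicate or mouse block, the compared groups alone, and each replicate left out. Correlations used 100000 permutations and a pseudocount of 1. Named genes were the 9 members, at most 3 called genes, by adjusted p, of each further oligodendrocyte list, the 10 genes most like the members, and both targeted genes. Relative levels, golli shares and the fits without libraries numbered 1 were added after values were seen. Items that are not reported here were left out of the lists and of the adjustment of relative levels.

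Regions were paired by mouse: deviations from group means correlated between the regions of a mouse at a median r of 0.169 (over 0.1 for 14 of 16 mice), against -0.0813 between other mice of a genotype. The members and lists were chosen with earlier results of these data known. Testing on simulated counts preceded the fits. p-values measure the spread between these mice.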

Additional observations from a re-analysis of the deposited data

Results flagged for a closer look

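In 72 groups of 4 mice, the gap between the most extreme value and its neighbour was compared with the range of the group (Dixon's ratio, 95% limit), and 4 groups exceeded the limit. Chance gives about 1 in 20 groups. In the *Kdm5c*-KO hippocampus, replicate 1 was highest for *Mog* (0.928) and *Cnp* (0.849). In the *Kmt2a*-HET hippocampus, replicate 4 was lowest for *Mag* (0.865) and *Ugt8a* (0.897). The 4 values come from 2 libraries, and the genes of a library vary together.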

How the results depend on the processing

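Of 3690 values of the 9 members under alternatives, 3664 kept their side of the threshold and their direction where called, 14 passed only under the alternative, 5 no longer passed and 7 reversed, while 336 uncalled values changed sign. Of 429 counts under alternatives, 20 moved. These are mostly counts of called members, with counts of members correlated between regions, of leading transcripts called and of members at the same rank of level.

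For *Kdm5c* loss in the amygdala, 1 member (*Ugt8a*) was called without all libraries numbered 1, and 0 to 1 when single replicates were left out. For DM against *Kmt2a*-HET in the hippocampus, leaving out replicates gave 0 to 1. Between regions in DM, 0 members were called with spike-in factors, 0 at an adjusted p under 0.05, 3 with the mouse block, 3 without libraries numbered 1 and 0 to 1 without single replicates. In *Kmt2a*-HET the mouse block called 1. Over the mean of the 4 genotypes, 7 members were called with spike-in factors, 2 with the filter on low counts, 2 with the mouse block, 2 without libraries numbered 1 and 1 to 2 without single replicates. Spike-in factors reversed the signs of *Cnp* (0.33), *Mal* (0.56), *Mobp* (0.65), *Ugt8a* (0.51), *Cldn11* (0.56), *Mbp* (0.61), *Mog* (0.48) and *Mag* (0.39, not called) in that comparison, by construction of the shift of all genes. The relation between regions held for 0 of 9 members with spike-in factors and for 0 to 9 without 1 replicate number, with 4 without number 2. Relative levels gave 6 calls in place of 12 without number 4.

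The labels name no batch that ties mice of different genotypes by replicate number. The mice numbered 1 do have lower mouse identifiers than all others with a numeric identifier, and the labels do not say what this reflects. Libraries numbered 1 deviated together in the amygdala (r of 0.21 to 0.466), but not every pair with a shared number did, down to -0.415 for number 4. A replicate block called 0 members between genotypes, and raised the calls over all genes by more than 1.5 times in 14 of 16 comparisons. In amygdala and hippocampus these rose from 3 to 326 and 0 to 248 in *Kmt2a*-HET, 144 to 507 and 195 to 506 in *Kdm5c*-KO, 211 to 601 and 170 to 480 in DM, 1 to 357 and 2 to 402 for DM against *Kdm5c*-KO, 158 to 547 and 117 to 436 for DM against *Kmt2a*-HET, 0 to 108 and 15 to 178 for *Kmt2a* heterozygosity, and 1 to 92 and 0 to 68 for additivity. edgeR gave counts over all genes that differed by more than 1.5 times in 15 of 24 comparisons, calling 203 against 335 by DESeq2 for *Kdm5c* loss in the amygdala and 249 against 493 in the hippocampus, 69 against 144 and 70 against 195 in *Kdm5c*-KO, 96 against 211 and 71 against 170 in DM, 68 against 158 and 53 against 117 for DM against *Kmt2a*-HET, and 0 against 15 for *Kmt2a* heterozygosity in the hippocampus. Spike-in factors moved the counts over all genes by more than 1.5 times in 19 of 24 comparisons, with 43 against 335 for *Kdm5c* loss in the amygdala and 24 against 493 in the hippocampus, 22 against 144 and 17 against 195 in *Kdm5c*-KO, 7 against 211 and 6 against 170 in DM, and 6 against 158 and 3 against 117 for DM against *Kmt2a*-HET. The causes of these changes were not tested. The number of mice, 4 a group, limits the precision of each member's difference to the SEs given.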
